A study of Mus musculus with 8 samples.

Results

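Ribosome biogenesis factors are the proteins that build ribosomes without remaining part of them. The set described here holds 57 genes out of the 20170 in the deposited matrix. They were picked by name for their known roles, with earlier results of these data known. Of these, 22 act on the small subunit, 21 on the large subunit, 8 belong to the small nucleolar ribonucleoproteins (snoRNPs) and 3 are subunits of RNA polymerase I (Pol I). The remaining 3, Ncl, Npm1 and Ddx21, are nucleolar proteins that take part in several steps and are given apart. All 57 passed the filter on low counts in both CD4+ and CD8+ cells. The study asked what loss of SDHA, a subunit of mitochondrial complex II, does to mouse T cells. Splenic T cells of WT mice and of SDHA-KO mice (Sdha fl/fl with a CD4-Cre transgene, both on the B6 background) were enriched by magnetic depletion of other cells and profiled by droplet single-cell RNA-seq. They were taken unstimulated, or after 48 hours of culture with antibodies to CD3 (5 μg/mL) and CD28 (2.5 μg/mL). Each of the 4 groups had 2 libraries, and dead cells were removed before capture. The CD4-Cre transgene deletes during thymic development in cells that express Cd4, which includes the precursors of CD8+ cells. T cells that never passed through a CD4+ stage, such as many gamma-delta T cells, can escape it. The study used mice of 8 to 12 weeks. Its WT controls in other experiments were Sdha fl/fl mice without Cre, and the floxed status of the WT mice that were sequenced was not stated separately in the sources used here.

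As background, ribosome production starts in the nucleolus, where Pol I transcribes the large precursor of the rRNAs. The small-subunit processome, which contains the U3 snoRNP, folds and cleaves the precursor of 18S rRNA, while separate factors assemble and export the large subunit. Box C/D snoRNPs methylate rRNA and box H/ACA snoRNPs convert uridines to pseudouridines. A T cell that leaves quiescence makes many new ribosomes before it divides, and this machinery is a known part of the T cell activation programme.

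UMIs were summed over the cells of each library and CD class (8562 cells annotated as CD4, 4284 as CD8), since cells are not replicates. The sums ran from 6776027 to 34087903 UMIs in the CD4 class and from 3640136 to 22311319 in the CD8 class. Values are CPM, UMI counts scaled to a common total with edgeR's TMM factors. The labels do not say whether the libraries of a group came from separate mice, so p-values measure the spread between libraries, which may be technical. In these sums, fewer expressing cells and less RNA per cell are not told apart, and they were not separated here from the counts of single cells. All 6 T cell markers checked were present in every library, and Sdha in the stimulated CD4 class was 74.0 and 73.1 CPM in WT against 26.5 and 26.4 in SDHA-KO. In the CD8 class Sdha was 76.2 and 74.9 CPM in WT against 53.3 and 50.5 in SDHA-KO, a smaller gap. Stimulated libraries stood apart in 2 further ways that touch the results. Median mitochondrial content was 14.9% to 19.0% of UMIs in the stimulated WT cells and 1.77% to 3.43% in the SDHA-KO cells, and 24.3% to 41.0% of WT cells but 64.1% to 90.0% of SDHA-KO cells lay under 10%. The gamma-delta T cell gene Trdc had a UMI in 59.1% and 56.1% of SDHA-KO cells annotated as CD8, against 3.67% and 4.92% in WT and, as the level in the CD4 class of the same SDHA-KO libraries, 10.1% and 8.64%. Median depth was 30662 and 29912 UMIs per cell in that SDHA-KO CD8 class and 23669 and 24652 in the SDHA-KO CD4 class. Across libraries, 23 of 12823 cell barcodes occurred more than once.

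The promoters to show were those of the members with the largest called rise and fall in stimulated SDHA-KO cells of each class. The largest rises were those of Bysl in CD4+ and Grwd1 in CD8+ cells. The largest fall was that of Npm1 in CD4+ cells, whose promoter was not found. The promoters run from 250 bases before to 50 after the start site (RefSeq, GRCm38.p6), 5′ to 3′ on the gene's strand. Bysl lies on the minus strand (chr17:47611443-47611742) and Grwd1 on the minus strand (chr7:45830740-45831039). Capitals mark every match, on either strand, to the E-box CACGTG, the NRF1 core GCATGCGC, the ETS motif CCGGAAG or the YY1 core AAGATGGCG.
Bysl: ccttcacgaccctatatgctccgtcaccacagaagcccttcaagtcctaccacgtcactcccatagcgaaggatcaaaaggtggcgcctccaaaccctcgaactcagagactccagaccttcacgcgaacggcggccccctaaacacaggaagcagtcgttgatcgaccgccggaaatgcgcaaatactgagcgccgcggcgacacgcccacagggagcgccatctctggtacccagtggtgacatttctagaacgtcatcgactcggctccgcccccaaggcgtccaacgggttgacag
Grwd1: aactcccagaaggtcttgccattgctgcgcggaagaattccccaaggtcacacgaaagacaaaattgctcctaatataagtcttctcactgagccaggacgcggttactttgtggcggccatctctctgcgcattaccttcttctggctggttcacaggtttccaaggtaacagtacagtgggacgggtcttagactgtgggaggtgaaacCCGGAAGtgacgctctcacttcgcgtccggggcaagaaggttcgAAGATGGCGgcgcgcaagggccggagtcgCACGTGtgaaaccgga
The Bysl window held none of the 4 motifs, while the Grwd1 window held the ETS motif, the YY1 core and, closest to its end, the E-box. Promoters of 51 of the 57 members were found in the RefSeq table. The missing ones were Rrp12, Tbl3, Rrs1, Bop1, Fbl and Npm1. The E-box was present in 11 of the 51 (21.6%), against 8.9% of all 17491 promoters and 12% of those of the 9213 genes tested in CD8+ cells that had one. These 11 were 6 of 20 small-subunit and 5 of 19 large-subunit promoters, and no snoRNP, Pol I or multi-step promoter held it. The ETS motif occurred in 20 (39.2%, against 12.9% of all and 21.5% of tested), the YY1 core in 3 (5.9%, against 2.1% and 3.8%) and the NRF1 core in 2 (3.9%, against 3.9% and 6.3%). The members with an E-box had a median log2 fold change between stimulated SDHA-KO and WT of 0.40 in CD4+ and 0.75 in CD8+ cells, and those without it 0.33 and 0.84. A match of letters is a description of the window, not evidence of binding.

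In stimulated cells annotated as CD8, nearly the whole machinery was higher in SDHA-KO than in WT. By edgeR's quasi-likelihood test with Benjamini-Hochberg adjustment over all 13095 genes, 56 of the 57 members rose and none fell, with a median log2 fold change of 0.80, whereas 26.8% of all genes tested were called higher and the median over all genes was −0.01. The count was 21 of 22 for the small subunit (median 0.75), 21 of 21 for the large subunit (0.97), 8 of 8 for snoRNPs (0.81), and 3 of 3 for both Pol I and the multi-step proteins. For all 57 members both SDHA-KO libraries lay above both WT libraries, which was so for 38.8% of all genes. The member not called was Ddx10, an RNA helicase of the small-subunit pathway, at 78.3 and 81.5 CPM in WT and 90.5 and 90.7 in SDHA-KO. CD8+ cells here are all cells annotated as CD8. Of these, 59.1% and 56.1% had a Trdc UMI in SDHA-KO, against 3.67% and 4.92% in WT. The SDHA-KO to WT ratio of the sum over all members was 1.59 in all of them. It was 1.34 in cells with a Cd8a or Cd8b1 UMI and no Cd4 or Trdc UMI. In such cells under 10% mitochondrial UMIs it was 1.04, with 0.831 for the multi-step proteins and 1.30 to 1.35 for the other steps. The part of cell composition was not tested.

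**Figure D1:**
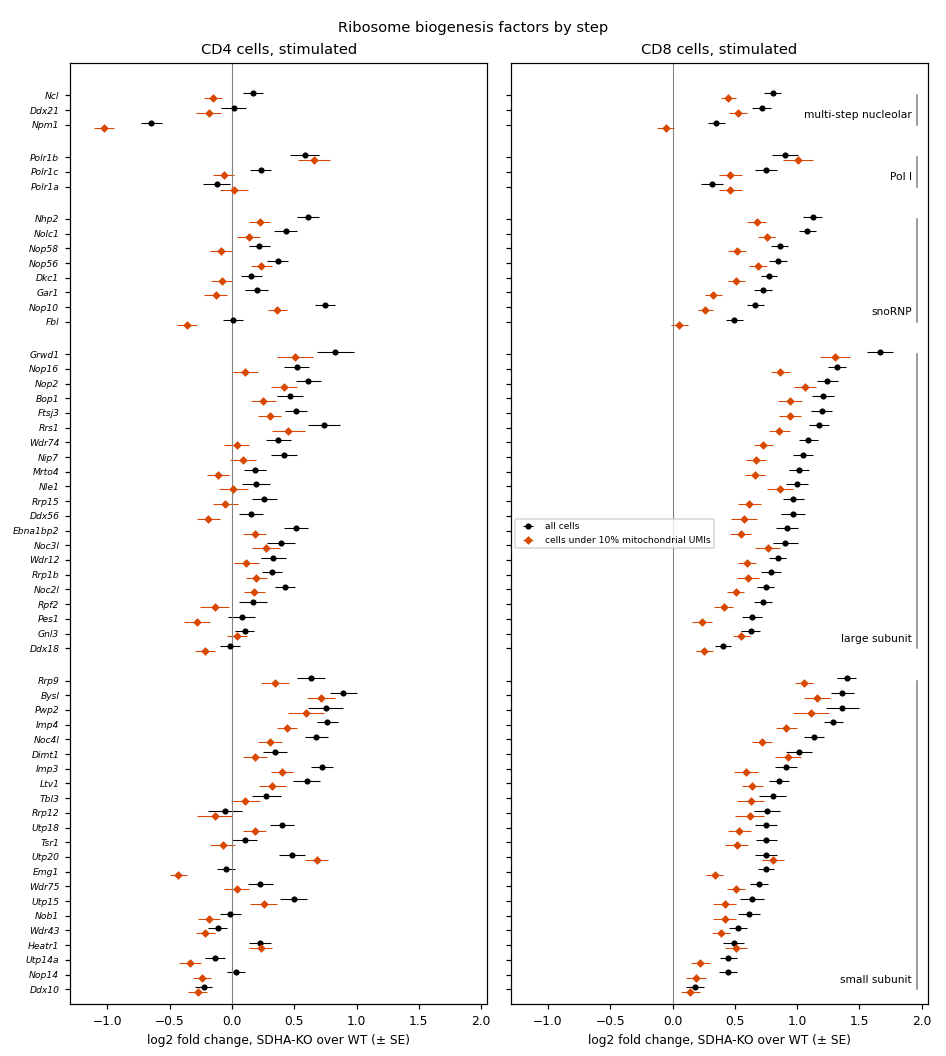
Log2 fold change between stimulated SDHA-KO and WT cells (x axis) for each of the 57 members, ordered by step, in CD4+ (left) and CD8+ (right) cells. Bars are ± SE, black points estimates over all cells and orange diamonds estimates over cells under 10% mitochondrial UMIs. In CD8+ cells 56 of 57 members were called higher over all cells, in CD4+ cells 30, and Npm1 is the point farthest to the left in CD4+ cells.

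Among small-subunit factors the largest rises in CD8+ cells were those of Rrp9, Bysl and Pwp2. Rrp9, a protein of the U3 snoRNP, was at 39.95 and 41.92 CPM in stimulated WT and at 109.0 and 106.5 in SDHA-KO (log2 fold change ± SE of 1.40 ± 0.07, adjusted p = 3.96e-07). Bysl, an assembly factor of the 40S subunit, was at 24.7 and 23.7 CPM in WT and 58.6 and 65.9 in SDHA-KO (1.36 ± 0.09, adjusted p = 1.49e-06), and Pwp2, a component of the processome, rose by the same amount from 6.64 and 7.90 to 19.2 and 18.3 CPM (1.36 ± 0.13, adjusted p = 1.18e-05). Lack of overlap between the genotypes was a condition for naming these 3 genes. Their unstimulated libraries resembled stimulated WT more than stimulated SDHA-KO. Imp4, which binds U3 snoRNA, was at 42.3 and 39.0 CPM in unstimulated WT, 44.8 and 40.1 in stimulated WT and 101.8 and 105.7 in stimulated SDHA-KO.

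The large-subunit factors had the highest median of the steps in CD8+ cells. Grwd1, a WD-repeat assembly factor whose promoter is printed above, was at 18.3 and 16.2 CPM in stimulated WT and at 52.2 and 57.0 in SDHA-KO, the largest rise of any member (1.66 ± 0.10, adjusted p = 1.17e-06). Its unstimulated levels were 16.3 and 12.5 CPM in WT and 16.8 and 16.0 in SDHA-KO, so the stimulated SDHA-KO libraries stood alone. Nop16 rose from 46.6 and 45.7 CPM to 112.0 and 118.5 (1.32 ± 0.07, adjusted p = 5.03e-07), and Nop2, a methyltransferase of 28S rRNA, rose from 29.3 and 28.3 to 68.1 and 68.0 (1.24 ± 0.08, adjusted p = 1.38e-06). The libraries of a group differed by far less than the groups did for both genes.

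The snoRNP members with the largest rises in CD8+ cells were Nhp2, a core protein of box H/ACA particles, and Nolc1, a chaperone that brings snoRNPs to the nucleolus. Nhp2 was at 213.2 and 215.7 CPM in stimulated WT and at 462.1 and 472.8 in SDHA-KO (1.12 ± 0.07, adjusted p = 1.47e-06), and Nolc1 at 165.0 and 156.2 against 336.1 and 344.0 (1.08 ± 0.07, adjusted p = 1.17e-06). Among Pol I subunits, Polr1b went from 15.8 and 13.2 CPM to 27.1 and 27.0 (0.90 ± 0.11, adjusted p = 4.23e-05), Polr1c, shared with Pol III, from 41.1 and 42.7 to 69.6 and 71.5 (0.75 ± 0.09, adjusted p = 5.64e-05), and Polr1a, the largest subunit, from 44.3 and 41.3 to 51.9 and 54.6 (0.32 ± 0.09, adjusted p = 0.0120). Groups did not overlap for any of these 5 genes, which for Nhp2 and Nolc1 was a condition for being named. The multi-step proteins rose as well. Nucleolin (Ncl) went from 1687 and 1596 to 2868 and 2864 CPM (0.80 ± 0.07, adjusted p = 5.45e-06), the helicase Ddx21 from 212.7 and 201.4 to 340.8 and 338.4 (0.71 ± 0.08, adjusted p = 2.29e-05), and nucleophosmin (Npm1) from 3283 and 3193 to 4165 and 4100 (0.35 ± 0.07, adjusted p = 0.00137).

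**Figure D2:**
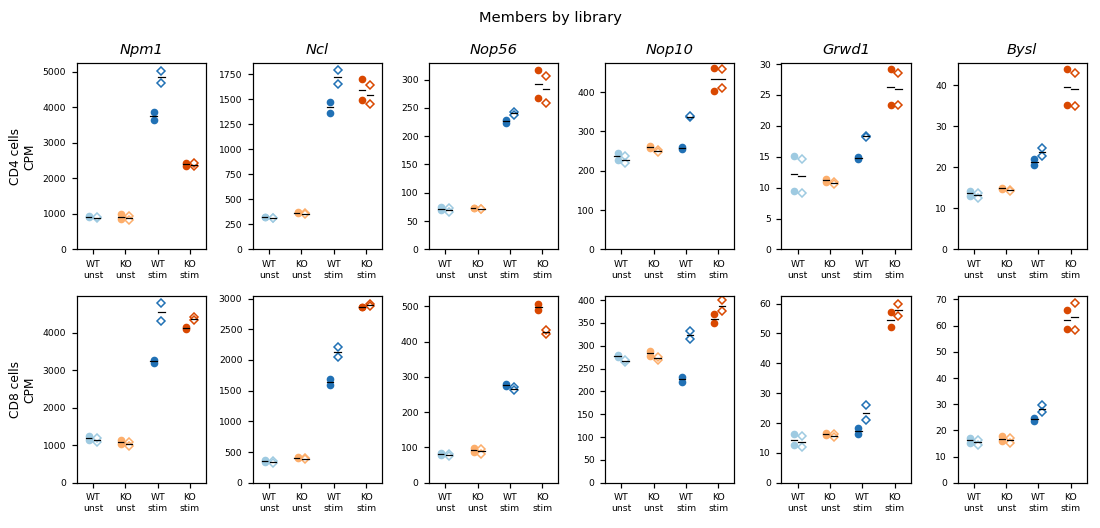
CPM (y axis) of Npm1, Ncl, Nop56, Nop10, Grwd1 and Bysl in each library by group (x axis) and CD class. Filled points are sums over all cells, open points sums over cells under 10% mitochondrial UMIs, and the line is the mean of the 2 libraries. Npm1 in stimulated CD4+ cells is lower in SDHA-KO (2345 and 2445) than in WT (3860 and 3650), while Grwd1 and Bysl are higher in stimulated SDHA-KO libraries of both classes.

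In stimulated CD4+ cells the change was smaller and not of one direction. Of the 57 members 30 rose and 2 fell by edgeR's quasi-likelihood test (14264 genes tested, Benjamini-Hochberg adjustment), with a median log2 fold change of 0.32, against 22.7% of all genes called higher and 20.5% called lower. The large subunit contributed 13 of 21 rises (median 0.37), the small subunit 11 of 22 with 1 fall (0.31), the snoRNPs 4 of 8 (0.29) and Pol I 2 of 3. The multi-step proteins gave 1 fall and no rise. Libraries of SDHA-KO lay above both WT libraries for 41 members, below both for 4 (Utp14a, Ddx10, Polr1a and Npm1) and overlapped for 12, where 37.8% of all genes lay above and 36.9% below.

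The small-subunit factor that rose most in CD4+ cells was Bysl. It was at 14.27 and 13.04 CPM in unstimulated WT, 14.99 and 14.82 in unstimulated SDHA-KO, 22.1 and 20.5 in stimulated WT and 35.2 and 43.9 in stimulated SDHA-KO (0.90 ± 0.11, adjusted p = 9.58e-05). Imp4 was at 40.8 and 41.2 CPM in stimulated WT and 64.3 and 74.8 in SDHA-KO (0.76 ± 0.08, adjusted p = 3.94e-05), and Pwp2 at 5.92 and 5.87 against 9.31 and 10.6 (0.75 ± 0.14, adjusted p = 0.00132). The 3 factors all belong to 40S assembly, and the SDHA-KO replicate 2 library was the higher of its pair in each. Ddx10 fell from 84.7 and 78.2 CPM to 68.9 and 70.2 (−0.23 ± 0.07, adjusted p = 0.0223), a call lost with DESeq2 (adjusted p = 0.0833), with no filter on low counts, in strict CD4 cells (with a Cd4 UMI and no Cd8a, Cd8b1 or Trdc UMI), and without any of 4 single libraries (WT unstimulated 1, WT stimulated 1, and either SDHA-KO stimulated). Nob1, the endonuclease that makes the mature 3′ end of 18S rRNA, was at 41.2 and 44.0 CPM in WT and 39.4 and 44.9 in SDHA-KO (−0.01 ± 0.09, adjusted p = 0.915), with overlapping libraries.

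Of the large-subunit factors, Grwd1 was at 15.01 and 14.57 CPM in stimulated WT CD4+ cells and at 23.4 and 29.2 in SDHA-KO (0.83 ± 0.15, adjusted p = 0.00114). Rrs1, which helps to bring the 5S particle into the nascent subunit, was at 27.4 and 26.8 against 40.8 and 49.5 CPM (0.74 ± 0.13, adjusted p = 0.000917), and Nop2 at 24.8 and 25.1 against 34.7 and 41.5 (0.61 ± 0.10, adjusted p = 0.000692). The SDHA-KO libraries were above both WT libraries in each, which was a condition for naming them. Among snoRNP proteins the box H/ACA members Nop10 and Nhp2 rose most. Nop10 was at 254.6 and 261.0 CPM in WT and 403.4 and 461.9 in SDHA-KO (0.75 ± 0.08, adjusted p = 3.50e-05), and Nhp2 at 202.2 and 206.0 against 285.3 and 337.5 (0.61 ± 0.09, adjusted p = 0.000268). Fibrillarin (Fbl), the methyltransferase of box C/D particles, was at 151.1 and 158.4 CPM in WT and 143.3 and 168.1 in SDHA-KO (0.01 ± 0.08, adjusted p = 0.943), so its groups overlapped. Polr1b rose from 10.7 and 11.5 to 16.2 and 17.0 CPM (0.58 ± 0.12, adjusted p = 0.00209) and Polr1c from 50.5 and 47.5 to 56.3 and 58.7 (0.23 ± 0.08, adjusted p = 0.0432, but 0.140 with DESeq2 and 0.0591 in strict cells), while Polr1a was at 37.8 and 38.0 in WT and 34.7 and 34.8 in SDHA-KO (adjusted p = 0.381).

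Npm1, a histone and ribosome chaperone that shuttles out of the nucleolus, had the largest fall of any member in CD4+ cells. It was at 910.3 and 939.0 CPM in unstimulated WT, 989.9 and 843.2 in unstimulated SDHA-KO, 3860 and 3650 in stimulated WT and 2345 and 2445 in stimulated SDHA-KO (−0.65 ± 0.08, adjusted p = 0.000130). The stimulated SDHA-KO libraries thus lay between the unstimulated and the stimulated WT libraries. Npm1 has processed pseudogenes in the mouse genome, and how reads shared with them were counted was not given in the sources used here. Ncl in the same cells was at 1478 and 1362 CPM in WT and 1491 and 1703 in SDHA-KO (0.17 ± 0.08, adjusted p = 0.110), and Ddx21 at 189.5 and 160.8 against 166.7 and 186.9 (0.01 ± 0.10, adjusted p = 0.928), so neither passed the test.

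Summed by step, the members' CPM gave the same order of classes. These sums were compared without a test. The small-subunit sum in stimulated CD4+ cells was 1149 ± 36.9 CPM in WT and 1366 ± 115.9 in SDHA-KO (mean ± SD, n = 2), a ratio of 1.19, and the ratios were 1.24 for the large subunit, 1.33 for snoRNPs, 1.11 for Pol I and 0.779 for the multi-step proteins. The last sum was mostly Npm1 and Ncl, and it made the sum over all members nearly equal in the 2 genotypes (ratio 0.977). In CD8+ cells the ratios were 1.68 for the small subunit, 1.87 for the large subunit, 1.80 for snoRNPs, 1.52 for Pol I and 1.44 for the multi-step proteins, and the sum over all members was 9137 ± 169.6 CPM in WT and 14564 ± 178.4 in SDHA-KO (ratio 1.59). The all-member ratio was lower in cells under 10% mitochondrial UMIs, at 1.255 in CD8+ and 0.783 in CD4+ cells.

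**Figure D3:**
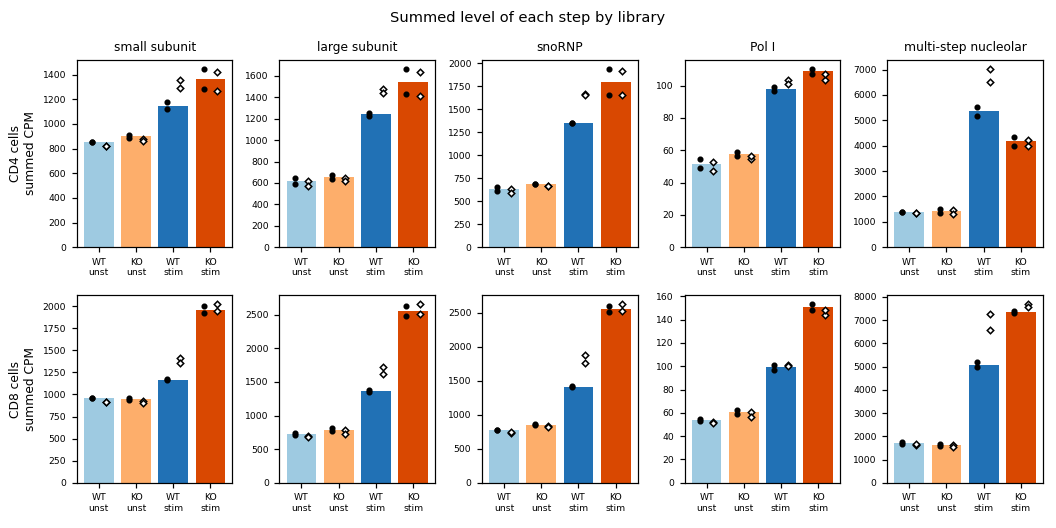
Summed CPM of the members of each step (y axis, from 0) in the 4 groups (x axis) for CD4+ and CD8+ cells. Bars are means of 2 libraries over all cells, black dots the libraries, and open diamonds the libraries over cells under 10% mitochondrial UMIs. Over cells under 10% the stimulated WT diamonds lie above the WT bars for most steps, so that the small-subunit ratio of SDHA-KO to WT in CD4+ cells is 1.02 in place of 1.19.

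Because mitochondrial content differed between the stimulated genotypes, the fits were repeated in cells with under 10% mitochondrial UMIs. In CD4+ cells 14 members were then called higher (16.0% of all genes tested) and 6 lower (16.7%), with a median log2 fold change of 0.11. The 14 were Bysl, Utp20, Pwp2, Imp4, Imp3, Rrp9, Ltv1 and Noc4l of the small subunit, Grwd1, Rrs1, Nop2 and Ftsj3 of the large subunit, Nop10 and Polr1b. The 6 lower ones were Npm1, Emg1, Fbl, Utp14a, Ddx10 and Nop14. In these cells Bysl was at 24.8 and 22.8 CPM in WT and 35.0 and 43.2 in SDHA-KO (0.72 ± 0.11, edgeR adjusted p = 0.000522), and Grwd1 at 18.4 and 18.3 against 23.4 and 28.6 (0.51 ± 0.15, edgeR adjusted p = 0.0210). Both stayed non-overlapping between genotypes with a smaller gap than over all cells. Emg1, a methyltransferase of 18S rRNA, was at 232.3 and 230.2 CPM in WT and 164.0 and 179.4 in SDHA-KO (−0.43 ± 0.07, edgeR adjusted p = 0.000801), while over all CD4+ cells its libraries overlapped. Fbl was at 195.9 and 203.1 against 143.9 and 166.4 CPM (−0.36 ± 0.08, edgeR adjusted p = 0.00448), also without overlap.

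The fall of Npm1 in CD4+ cells was larger in cells under 10% mitochondrial UMIs, with 5030 and 4675 CPM in WT and 2354 and 2417 in SDHA-KO (−1.02 ± 0.08, edgeR adjusted p = 4.01e-06). Its rise in CD8+ cells was not seen there: Npm1 was at 4786 and 4322 CPM in WT and 4427 and 4341 in SDHA-KO (−0.05 ± 0.07, edgeR adjusted p = 0.565), and the libraries overlapped. Over all CD8+ members, 53 of 57 were called higher in these cells (18.4% of all genes tested) and none lower, with a median of 0.59 against 0.80 over all cells. The 4 not called were Npm1, Fbl, Ddx10 and Nop14. The ratios of the summed steps were 1.43 for the small subunit, 1.55 for the large subunit, 1.41 for snoRNPs, 1.46 for Pol I and 1.10 for the multi-step proteins in CD8+ cells, and 1.02, 1.04, 1.07, 1.03 and 0.607, in the same order, in CD4+ cells.

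The scaling also mattered in CD4+ cells under 10% mitochondrial UMIs. With library totals in place of TMM factors, a choice made after seeing the data, 29 members were higher and 2 lower with a median of 0.29, but then 30.8% of all genes were called higher and the median over all genes was itself 0.19. Low-mitochondrial WT cells were also deeper, with a median of 59711 to 64638 UMIs per cell against 26638 to 47147 in SDHA-KO. The part of mitochondrial content, depth and scaling in the CD4+ differences was not tested beyond these values.

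Within single libraries, cells on either side of the 10% limit differed in which members they held. On CPM of nuclear UMIs, which leaves out the 13 mitochondrial genes of the matrix, the members' median log2 ratio of low to high mitochondrial cells was 0.12 in stimulated WT CD4+ cells, where the median of all genes was −0.91. In those cells 29 members were higher and 25 lower in both libraries, where 21.7% of all genes were higher and 73.3% lower. Npm1 was higher by 1.11 and 1.08 on the log2 scale in the 2 WT libraries and Nop10 by 1.27 and 1.27. Polr1a was lower, at −1.32 and −1.41. Nop10 and Polr1a thus moved in opposite directions within the same libraries.

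The CD8 class was also restricted to cells with a Cd8a or Cd8b1 UMI and no Cd4 or Trdc UMI (strict cells), which kept 33.1% and 37.1% of the SDHA-KO and 87.2% and 85.0% of the WT cells. In strict CD8+ cells 54 members rose and none fell, with a median of 0.68 (25.0% of all genes higher). In strict cells under 10% mitochondrial UMIs, a combination added after seeing the data, 44 rose and 1 fell, with a median of 0.43 (16.2% of all genes higher and 16.6% lower). The 44 were 16 of the small subunit, 18 of the large subunit, 6 of the snoRNPs, 3 of Pol I and 1 of the multi-step proteins. Their leaders were Nop2 (1.01 ± 0.10), Grwd1 (0.99) and Bysl (0.99), all on the log2 scale. The 1 that fell was Npm1, at 4755 and 4358 CPM in WT and 3171 and 3123 in SDHA-KO (−0.53 ± 0.06, edgeR adjusted p = 4.29e-05), so its direction in the CD8 class turned with the cells included. Strict CD4+ cells under 10% gave 11 rises (14.0% of all genes) and 5 falls (15.5%), and Npm1 was again the largest fall at −1.05. In the stimulated SDHA-KO CD8 class the members together took 18685 and 18710 CPM of nuclear UMIs in cells with a Trdc UMI and 14396 and 14661 in cells without one. Strict WT cells of that class took 12245 and 11307, against 14262 and 14647 in strict SDHA-KO cells. In strict cells under 10% mitochondrial UMIs the values were 13617 and 12392 in WT and 14248 and 14654 in SDHA-KO. On TMM-scaled CPM, the SDHA-KO to WT ratio of the sum over all members was 1.34 in strict CD8+ cells. It was 1.04 in strict CD8+ cells under 10%.

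The KO effect was next compared between the classes within the same libraries, with library as a block and the class by genotype term as the test. The log2 effect was higher in CD8+ than in CD4+ cells for 50 members and lower for none (median difference 0.52), where 11.9% of 14617 genes were called higher. By step this was 17 of 22 for the small subunit, 21 of 21 for the large subunit, 7 of 8 for snoRNPs, 2 of 3 for Pol I and 3 of 3 for the multi-step proteins. The largest differences were those of Npm1 (0.99 ± 0.06, edgeR adjusted p = 0.000237), Grwd1 (0.83 ± 0.11, 0.00203), Mrto4 (0.81 ± 0.06, 0.000474), Rrp12 (0.81 ± 0.17, 0.0141), Ddx56 (0.80 ± 0.10, 0.00177) and Nle1 (0.79 ± 0.09, 0.00133). Mrto4 holds the place of the stalk protein P0 on the pre-60S particle, Nle1 is released from that particle by the AAA+ protein Mdn1, and Ddx56 is a nucleolar helicase. Rrp12, an export factor, shows the gap in its levels: 11.8 and 11.3 CPM in stimulated WT against 9.70 and 12.5 in SDHA-KO in CD4+ cells, which overlapped, and 16.1 and 16.9 against 29.6 and 26.2 in CD8+ cells, which did not.

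**Figure D4:**
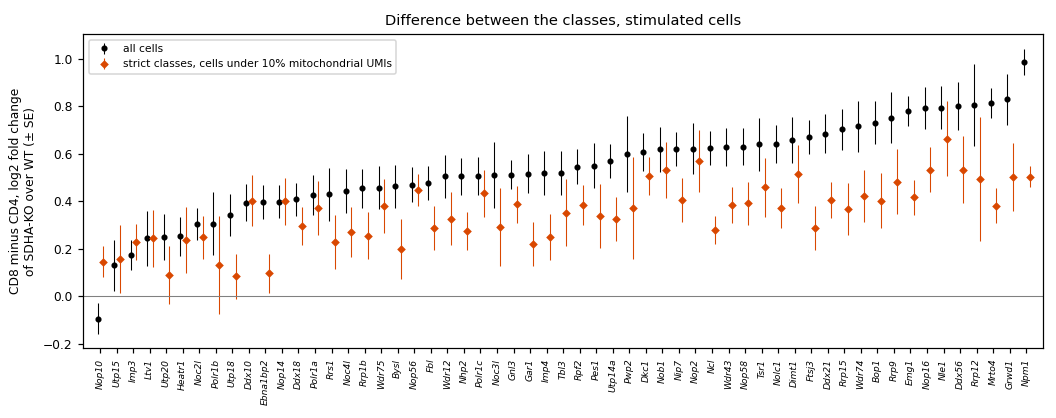
Difference of the SDHA-KO effect between CD8+ and CD4+ stimulated cells (log2, y axis) for each member (x axis), ordered by the estimate over all cells. Black points with bars are estimates ± SE over all cells and orange points are estimates over strict cells under 10% mitochondrial UMIs. Over all cells 50 of 57 members were called above 0 and Nop10 lies just below it at −0.09.

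The difference between the classes became smaller when cells were restricted. It was called for 48 members in cells under 10% mitochondrial UMIs (9.67% of all genes), for 32 in strict cells (5.32%) and for 20 in strict cells under 10% (3.56%), with medians of 0.49, 0.39 and 0.37. Of the 6 members named above, Rrp12 was not called in strict cells (0.54, edgeR adjusted p = 0.151) or strict cells under 10% (0.49, 0.310), and Grwd1 (0.50, 0.0670) and Ddx56 (0.53, 0.0570) were not called in the latter. Members not called over all cells were Nop10 (−0.09 ± 0.06, edgeR adjusted p = 0.340), Utp15, Imp3, Ltv1, Utp20, Heatr1 and Polr1b. Between the classes of stimulated WT cells, 22 members were higher in CD8+ cells (11.0% of all genes) and 1, Npm1, was lower (12.5%), with a median of 0.13. The WT differences were led by Rrp12 (0.57 ± 0.12, edgeR adjusted p = 0.0134), Heatr1, a processome scaffold protein (0.49 ± 0.06, 0.00110), and Ftsj3, an rRNA methyltransferase (0.44 ± 0.05, 0.000948). Npm1 differed by −0.16 ± 0.04 (edgeR adjusted p = 0.0240). Without either stimulated WT library the count of 23 members called dropped to 6.

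Most of the set was higher in stimulated than in unstimulated WT cells, a difference called activation below. Whether the unstimulated cells were cultured was not stated in the sources used here. Activation and time in culture can therefore not be told apart. The stimulated WT libraries serve here and in the comparisons of genotype, so the 2 sets of estimates are not independent and are given only side by side. In CD4+ cells 49 members rose and none fell between unstimulated and stimulated WT (median log2 fold change 0.88, 36.2% of all genes higher), and in CD8+ cells 47 rose (35.5%) and 2 fell (30.3%), with a median of 0.70. In cells under 10% mitochondrial UMIs 55 rose in CD4+ cells (37.7% of all genes) and 52 in CD8+ cells (36.1%), with medians of 1.12 and 1.04. With library totals in place of TMM factors 55 rose in each class, where 43.9% of all genes in CD4+ and 52.8% in CD8+ cells were called higher, while the median of all genes moved from 0.08 to 0.30 in CD4+ cells and from 0.09 to 0.57 in CD8+ cells.

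Of the multi-step proteins, Ncl had the largest rise of any member with activation in both classes. Ncl was at 328.9 and 326.2 CPM in unstimulated and 1478 and 1362 in stimulated WT CD4+ cells (2.12 ± 0.08, edgeR adjusted p = 2.65e-09), and at 378.4 and 344.2 against 1687 and 1596 in CD8+ cells (2.19 ± 0.07, edgeR adjusted p = 7.92e-10). Npm1 rose by 2.02 ± 0.09 in CD4+ cells (edgeR adjusted p = 4.53e-09) and by 1.44 ± 0.07 in CD8+ cells (edgeR adjusted p = 1.12e-08), from 1142 and 1239 to 3283 and 3193 CPM in the latter. Ddx21 rose less, by 0.31 ± 0.10 and 0.43 ± 0.08 on the log2 scale. The stimulated libraries of Ncl and Npm1 were all well above the unstimulated ones, whereas Ddx21 moved from 152.2 and 131.4 to 189.5 and 160.8 CPM in CD4+ cells.

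Among small-subunit factors Noc4l, the partner of Nop14, rose most with activation, from 8.98 and 7.34 to 32.0 and 30.0 CPM in CD4+ cells (1.93 ± 0.14, edgeR adjusted p = 2.19e-07) and from 9.71 and 10.9 to 29.9 and 31.7 in CD8+ cells (1.57 ± 0.13, edgeR adjusted p = 8.39e-07). Rrp12 and Nop14 followed in both classes, with log2 changes of 1.34 ± 0.19 and 1.22 ± 0.09 in CD4+ cells. Imp3, which works beside Imp4, fell in WT CD8+ cells from 135.1 and 134.3 to 113.7 and 111.1 CPM (−0.26 ± 0.10, edgeR adjusted p = 0.0353) and stood at 197.3 and 225.7 in stimulated SDHA-KO. Imp3 moved the other way in the CD8+ class with library totals (0.22) and in cells under 10% mitochondrial UMIs (0.21). Over all CD4+ cells Utp18, Emg1 and Ltv1 had the smallest changes, at 0.05, 0.06 and 0.08. In cells under 10% mitochondrial UMIs all 3 were called higher, at 0.30, 0.50 and 0.40 (edgeR adjusted p = 0.0247, 7.7e-05 and 0.0160).

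Large-subunit and snoRNP factors had higher medians than the small subunit. In CD4+ cells the medians were 1.02 for the large subunit and 1.54 for snoRNPs against 0.55 for the small subunit, and in CD8+ cells 0.83 and 1.14 against 0.43. Mrto4 rose from 38.5 and 32.8 to 131.9 and 121.9 CPM in CD4+ cells (1.83 ± 0.11, edgeR adjusted p = 4.40e-08) and from 41.1 and 47.7 to 143.6 and 140.1 in CD8+ cells (1.67 ± 0.10, edgeR adjusted p = 4.84e-08). Rrp1b, a nucleolar factor of the large subunit, led that step in CD8+ cells (1.82 ± 0.12), from 16.6 and 14.7 to 53.3 and 56.3 CPM. Nhp2 rose from 60.5 and 54.4 to 202.2 and 206.0 CPM in CD4+ cells (1.83 ± 0.10, edgeR adjusted p = 2.51e-08), and Nolc1 from 43.4 and 40.4 to 165.0 and 156.2 in CD8+ cells (1.94 ± 0.09, edgeR adjusted p = 5.31e-09). Stimulated and unstimulated libraries did not overlap for these 4 genes, which was a condition for naming them. Nop10, in contrast to its partner Nhp2, was at 246.0 and 228.2 against 254.6 and 260.9 CPM in CD4+ cells (0.12, edgeR adjusted p = 0.211) and fell in CD8+ cells from 275.9 and 280.4 to 221.6 and 231.1 (−0.30 ± 0.07, edgeR adjusted p = 0.00269), a fall that turned to 0.19 with library totals and 0.28 in cells under 10%. All 3 Pol I subunits rose in both classes, between 0.39 ± 0.15 for Polr1b and 1.34 ± 0.10 for Polr1c in CD4+ cells. The Polr1b call in CD4+ cells (adjusted p = 0.0376 by edgeR) was lost with DESeq2 (adjusted p = 0.170) and in cells under 10% (0.29, edgeR adjusted p = 0.124), among other settings.

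Before stimulation the genotypes were close. No member was called between unstimulated SDHA-KO and WT in either class by edgeR's quasi-likelihood test, where 1.1% of all genes were called in CD4+ and 0.947% in CD8+ cells. At an unadjusted p under 0.05 there were 10 of 57 members in CD4+ cells, all higher in SDHA-KO, where 16.0% of all genes were under it, and 12 in CD8+ cells (14.1% of all genes), of which Imp3 and Utp14a were lower. DESeq2 called none either, with 4 members (9.74% of all genes) and 6 members (9.85%) at an unadjusted p under 0.05. These counts lie near those over all genes. The medians over the members were 0.12 and 0.10. Among the larger estimates were Rrp12 in CD4+ cells, at 4.17 and 4.94 CPM in WT and 7.82 and 6.98 in SDHA-KO (0.69 ± 0.22, edgeR adjusted p = 0.162), and Nolc1 in CD8+ cells, at 43.4 and 40.4 against 58.2 and 53.9 (0.42 ± 0.10, edgeR adjusted p = 0.0891). Their libraries did not overlap, but neither passed the adjusted test. These genes were chosen after their values were seen.

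The genotype effect after stimulation was tested against that before it. In CD8+ cells the effect was higher after stimulation for 47 members and lower for none (13.5% of all genes higher, median 0.72), led by Grwd1 (1.46 ± 0.22, edgeR adjusted p = 0.00107), Imp4 (1.45 ± 0.14, 0.000137), Rrp9 (1.35) and Bysl (1.30). In CD4+ cells it was higher for 12 (10.9% of all genes) and lower for 2 (10.5%). Grwd1 led the rises there (0.96 ± 0.26, edgeR adjusted p = 0.0229) and the 2 lower were Npm1 (−0.64 ± 0.12, 0.00390) and Ddx10 (−0.35 ± 0.11, 0.0370). The CD4+ count of 14 depended on single libraries and ranged from 4, without SDHA-KO unstimulated replicate 2, to 20. In cells under 10% mitochondrial UMIs 22 members were higher in CD8+ cells (5.10% of all genes). In CD4+ cells under 10% only Polr1b was higher (6.21%), and Nop14, Emg1, Fbl, Ddx10 and Npm1 were lower (8.02%).

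The step sums were also compared within the annotated subsets that had at least 20 cells in each of the 4 stimulated libraries, 8 in the CD4 class and 4 in the CD8 class. The subsets are clusters the authors named, drawn from all genes, so the values are a description. These sums are CPM of nuclear UMIs without TMM factors, unlike the step sums above. No share over all genes was taken for the subsets. With TMM factors, the ratios in CD4+ cells under 10% mitochondrial UMIs were 1.02 for the small subunit, 1.04 for the large subunit and 1.07 for snoRNPs. In CD4 subsets the small-subunit, large-subunit and snoRNP sums were higher in both SDHA-KO libraries than in both WT libraries in 8 of 8 subsets, with ratios of 1.10 to 1.55, 1.18 to 1.85 and 1.22 to 1.98 in that order, and Pol I in 7 of 8. The multi-step proteins split. They were lower in Tem1, Tem2, Tem3 and Tem5, overlapped in Tcm3, and were higher in Tcm2, Tcm4 and Tem7. In Tem1 CD4+ cells the multi-step sum was 5692 and 5355 CPM of nuclear UMIs in WT and 3267 and 3310 in SDHA-KO, and in Tcm2 it was 4513 and 3954 against 4673 and 5228. Cell numbers differed between genotypes, for example 47 and 63 WT against 369 and 375 SDHA-KO cells in Tem5. In the CD8 subsets Tcm2, Tcm3, Tcm4 and Tem2 every step was higher in SDHA-KO, with ratios between 1.31 for the multi-step proteins and 2.51 for snoRNPs.

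**Figure D5:**
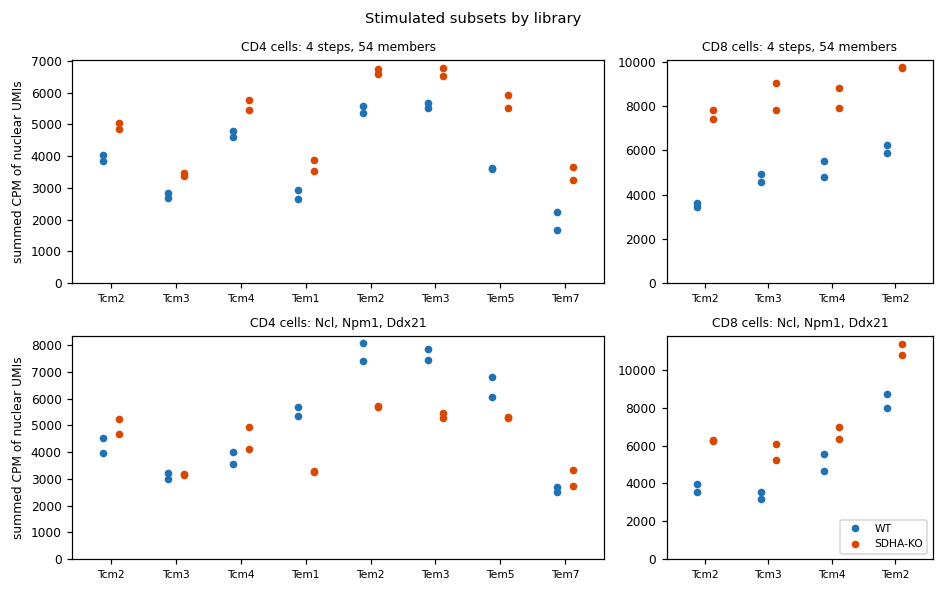
Summed CPM of nuclear UMIs (y axis) of the 54 members of the 4 steps (top) and of Ncl, Npm1 and Ddx21 (bottom) in annotated subsets of stimulated cells (x axis), WT in blue and SDHA-KO in orange, each point a library. The step sums are higher in SDHA-KO in the CD4 and CD8 subsets shown, while the lower panel shows the SDHA-KO points under the WT points in CD4 Tem1, Tem2, Tem3 and Tem5.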

How the data were processed

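Splenic T cells of 8 libraries (WT and SDHA-KO, unstimulated and stimulated, 2 libraries each) were profiled with 10x Genomics 3′ chemistry. The submitters' processing notes name bcl2fastq, Cell Ranger and the build mm10; the Cell Ranger version was not given in the sources used here. The authors deposited raw UMI counts per gene and cell. They had removed cells above limits on detected genes and clusters without CD3, and they annotated CD class and subset from clusters. The deposited cell table also holds the authors' percent of mitochondrial UMIs per cell and a log10 ratio of Cd4 to Cd8a UMIs per cell, of which the percent was used. All deposited values were whole, and the totals and mitochondrial percentages recomputed from the counts matched the table (tolerance 0.001 for percentages). No doublet caller was run here beyond the authors' upper limits on detected genes.

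Counts were summed per library and CD class and fitted with edgeR 4.0.16 (R 4.3.3, limma 3.58.1): TMM scaling (trim 0.3), filterByExpr (minimum count 10, minimum total 15), quasi-likelihood test, Benjamini-Hochberg adjustment over all genes tested, called at 0.05. The 4 groups of a class shared 1 fit (4 residual degrees of freedom, 14264 genes in CD4 and 13095 in CD8 cells). Differences between classes came from 1 fit of the 4 stimulated libraries with library as a block (14617 genes, 2 residual degrees of freedom for libraries). SEs are those of log2 fold changes. The square root of edgeR's common dispersion was 8.73%, 8.24% and 5.25% in the 3 fits. It measures spread between libraries, which may be technical. The last value is what remains with library as a block, so it is not comparable with the others. The fits were tested on simulated counts. Alternatives were library totals without TMM, no filter on low counts, DESeq2 1.42.0, leaving out mitochondrial genes, cells under 10% mitochondrial UMIs, strict classes, each library left out and the replicate block. Strict CD4 cells had a Cd4 UMI and no Cd8a, Cd8b1 or Trdc UMI. Strict classes combined with the 10% limit, and that limit combined with library totals, were added after seeing the data. Step sums were described without a test, and subsets only with at least 20 cells in each stimulated library. Members with few UMIs, such as Rrp12 and Pwp2 in unstimulated cells, carry counting error as well as the spread between libraries. Python 3.11.15 (numpy 2.4.6, scipy 1.17.1, pandas 2.3.3, matplotlib 3.10.9) was used for the rest.

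The members, the other gene lists and the tests were chosen with earlier results of these data known. Members named were those with the largest called changes per step and class whose groups did not overlap (3 upward and 2 downward, for snoRNPs 2), all Pol I and multi-step members, the 6 largest called class differences and the 3 smallest changes. Other lists name at most the largest rise and fall.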

Additional observations from a re-analysis of the deposited data

Results flagged for a closer look

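The SDHA-KO effect differed between groups of cells in the sets of tests below, each over all genes with edgeR's quasi-likelihood test and Benjamini-Hochberg adjustment. Between the classes of stimulated cells it was higher in CD8+ than in CD4+ cells for 50 members (11.9% of all genes). In CD4+ cells it was higher after stimulation than before it for 12 members (10.9% of all genes) and lower for 2 (10.5%). In CD8+ cells it was higher after stimulation for 47 (13.5%). The counts were smaller in restricted sets of cells, as given below. The named members behind the first set were Npm1 (log2 difference 0.99), Grwd1 (0.83), Mrto4 (0.81), Rrp12 (0.81), Ddx56 (0.80) and Nle1 (0.79). For the difference between stimulated and unstimulated cells they were Grwd1 (0.96) and Npm1 (−0.64) in CD4+ cells and Grwd1 (1.46) in CD8+ cells. With 2 libraries in each group, no library was checked for standing far from the rest of its group.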

How the results depend on the processing

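Limits: with 2 libraries a group, single libraries can move calls, and in CD4+ cells the count of members called differed between all cells and those under 10% mitochondrial UMIs with TMM scaling, but not with library totals (31). Where a result changed, the cause was not tested. Counts below give members called in either direction. Between stimulated genotypes the CD4+ count of 32 was 20 in cells under 10% mitochondrial UMIs (low) and 16 in strict low cells. For unstimulated genotypes it went from 0 to 1 in CD4+ cells with no filter, and from 0 to 2 in CD8+ cells with library totals, over all and over low cells. The difference between stimulated and unstimulated effects called 14 in CD4+ cells, 6 in low, 6 in strict and 6 in strict low cells, and 7 in low cells with library totals. In CD8+ cells it called 47, then 22, 29, 6 and 18 in that order. The class difference called 50, 32 in strict and 20 in strict low cells. Stimulated WT CD8+ against CD4+ cells gave 23, and 11 with DESeq2. Under every other setting tried these counts stayed within 1.5 times.

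Leaving out single libraries gave ranges of 25 to 41 (CD4+) and 55 to 57 (CD8+) for stimulated genotypes, 0 to 0 for unstimulated ones in both classes, 41 to 49 (CD4+) and 44 to 49 (CD8+) for activation, 4 to 20 (CD4+) and 36 to 45 (CD8+) for the difference between stimulated and unstimulated effects, 40 to 50 for the class difference and 6 to 27 for WT classes. The CD4+ count of 14 became 5 and 7 without WT unstimulated replicate 1 or 2, 4 without SDHA-KO unstimulated replicate 2, and 8 and 6 without WT stimulated replicate 1 or 2. The WT class count of 23 became 6 without either WT stimulated library. A lone library was assumed to vary like the other groups. Calls were lost without at least 1 library for Ddx10 (−0.226 to −0.158) and Polr1c (0.200 to 0.286) between stimulated genotypes in CD4+ cells, Polr1a in CD8+ cells (0.247 and 0.264), Polr1b and Ddx21 with activation in the CD4 class (0.251 to 0.412 and 0.153 to 0.222), Imp3 with activation in CD8+ cells (−0.278 to −0.232), Rrp12 in the class difference (0.737 without WT stimulated replicate 1) and Grwd1 in the CD4+ difference between stimulated and unstimulated effects (0.590 to 0.989).

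Step sums (log2 of stimulated SDHA-KO over WT, in the order small subunit, large subunit, snoRNP, Pol I, multi-step) in CD4+ cells were 0.0249, 0.0584, 0.102, 0.0473 and −0.721 in low cells and 0.0369, 0.0731, 0.0866, 0.0433 and −0.735 in strict low cells. In CD8+ cells they were 0.685, 0.843, 0.789, 0.543 and 0.467 with library totals, 0.518, 0.630, 0.5, 0.544 and 0.142 in low, 0.613, 0.707, 0.756, 0.485 and 0.160 in strict, and 0.381, 0.428, 0.406, 0.437 and −0.268 in strict low cells, the last reversed.

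Named members whose sign turned between stimulated genotypes in CD4+ cells were Polr1c (−0.066 low, −0.092 strict low), Polr1a (0.016 low, 0.052 strict low, 0.205 low with totals), Ncl (−0.152 low and −0.152 strict low), Ddx21 (−0.186 low, −0.180 strict low, −0.087 and −0.057 without WT or SDHA-KO stimulated replicate 2, up to 0.148 without others), Fbl (−0.362 low, −0.391 strict low, −0.174 low with totals, −0.013 without WT stimulated replicate 1, −0.096 without SDHA-KO stimulated replicate 2, up to 0.136 without others) and Nob1 (0.009 with totals, 0.031 with no filter, 0.006 without mitochondrial genes, 0.006 low with totals, 0.049 without WT stimulated replicate 2, 0.093 without SDHA-KO stimulated replicate 1, down to −0.097 without others). In CD8+ cells Npm1 turned (−0.055 low, −0.074 strict, −0.534 strict low). With activation in CD4+ cells Utp18 (−0.059 without WT stimulated replicate 1, up to 0.122) and Ltv1 (−0.003 without WT unstimulated replicate 2, −0.073 without WT stimulated replicate 1, up to 0.214) turned. With activation in CD8+ cells, in the order totals, low, strict low and low with totals, Imp3 was 0.222, 0.208, 0.222 and 0.491, Nop10 0.185, 0.281, 0.273 and 0.564, Utp18 0.431, 0.255, 0.256 and 0.538, and Noc3l 0.476, 0.185, 0.189 and 0.468. Noc3l was also 0.033 with no filter, 0.002 in strict cells, 0.012 with DESeq2 and between −0.147 and 0.161 without single libraries, Utp18 0.120 without WT unstimulated replicate 1, and Imp4 −0.018 without WT stimulated replicate 1 and at most 0.145 without others.

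Named members whose call was lost with the sign kept were, between stimulated genotypes in CD4+ cells, Ddx10 (no filter, strict, DESeq2, strict low, low with totals), Polr1c (strict, DESeq2, low with totals) and Nhp2 (low, strict low), and in CD8+ cells Polr1a (strict), Ncl (strict low) and Npm1 (low with totals). With activation they were Polr1b in CD4+ cells (no filter, without mitochondrial genes, low, strict, DESeq2, only the groups compared, strict low, low with totals), Ddx21 in CD4+ cells (strict) and Imp3 in CD8+ cells (no filter, strict, DESeq2). In the class difference they were Rrp12 (strict, strict low), Grwd1 and Ddx56 (strict low), and in the difference between stimulated and unstimulated effects Grwd1 in CD4+ cells (low, strict, strict low, low with totals) and in CD8+ cells (strict low). Calls were gained by Ncl in CD4+ cells (no filter) and Ddx10 in CD8+ cells (only the groups compared, low with totals) between genotypes, and with activation by Utp18 and Emg1 (totals, low, strict low, low with totals) and Ltv1 (low, strict low, low with totals) in CD4+ cells and Imp4 (totals, low, strict low, low with totals) in CD8+ cells.

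Replicate numbers did not pair the libraries (correlations of deviations from −0.078 to 0.056). With the replicate block the CD4+ counts were 32, 0, 49 and 13 and the CD8+ counts 56, 0, 49 and 45, for stimulated genotypes, unstimulated genotypes, activation and the difference of effects. The class fits already hold library as a block.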

Other observations

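A further list of 129 ribosome biogenesis genes that are not among the 57 was also counted. In stimulated CD4+ cells 69 were higher in SDHA-KO and 4 lower by edgeR's quasi-likelihood test (median log2 fold change 0.30), where 22.7% of all genes were higher and 20.5% lower, with 22 of 39 small-subunit, 25 of 47 large-subunit, 4 of 11 snoRNP, 9 of 17 Pol I and 9 of 15 rRNA decay and exosome genes among those higher. In stimulated CD8+ cells 111 were higher and 1 lower (median 0.64), where 26.8% of all genes were higher and 23.5% lower. The largest rise in both classes was that of Nol6, a component of the small-subunit processome, with log2 changes of 0.99 ± 0.15 (edgeR adjusted p = 0.00034) in CD4+ and 1.17 ± 0.12 in CD8+ cells. Taf1d, a subunit of the Pol I selectivity factor, fell in both, by 1.43 ± 0.07 in CD4+ cells (edgeR adjusted p = 1.16e-07) and by 0.30 ± 0.07 in CD8+ cells (edgeR adjusted p = 0.0052). In cells under 10% mitochondrial UMIs the list gave 30 higher and 15 lower in CD4+ cells and 96 higher and 4 lower in CD8+ cells, where 16.0% and 16.7% of all genes in CD4+ and 18.4% and 17.0% in CD8+ cells were higher and lower.

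Ribosomal protein genes were counted as well. Of 81 cytosolic ribosomal protein genes tested, 17 were higher and 12 lower in stimulated SDHA-KO CD4+ cells, and 26 higher and 6 lower in CD8+ cells. In CD4+ cells both shares lay near or below those of all genes given above. In CD8+ cells the share higher lay above that of all genes, and the share lower lay below it. Rps27l had the largest rises, with log2 changes of 1.34 and 1.07. In cells under 10% mitochondrial UMIs the balance turned to 1 higher and 59 lower in CD4+ cells (median −0.36) and to 2 higher and 63 lower in CD8+ cells (median −0.27), in the same CD8+ cells in which 53 of the 57 biogenesis factors were higher. Of 77 mitochondrial ribosomal protein genes, 58 were higher in CD4+ and 74 in CD8+ cells and none was lower, and in cells under 10% the counts were 18 higher and 8 lower in CD4+ cells and 47 higher and 1 lower in CD8+ cells. The part of depth and mitochondrial content in these counts was not tested. B cell markers summed to 354.5 CPM in the CD8 class of SDHA-KO stimulated replicate 1, against 52.0 to 68.0 in the other stimulated CD8 sums.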
